A study of Mus musculus with 12 samples.

Results

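The proteasome genes of the mouse small intestine were taken as all genes whose symbol begins with Psma, Psmb, Psmc, Psmd, Psme, Psmf or Psmg and a digit. They were read through probe sets that carry 1 gene symbol, with the brightest probe set (highest mean log2 signal over 12 arrays) standing for each gene. This gave 48 genes, on 100 probe sets, of 15130 genes with a symbol in the series. Of these, 42 encode constitutive subunits, assembly chaperones, activators or an inhibitor and form the list described first. The 3 immunoproteasome genes Psmb8, Psmb9 and Psmb10 are described apart. The other 3 are Psma8, a testis subunit, and Psmc3ip and Psme3ip1, which only share the name. The array reads Psme2 through a probe set that also names Psme2b, so it was left out.

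RNA of whole small intestine, taken 5 days after Cre was induced, had been hybridised to Affymetrix arrays, 1 for each mouse, with 3 mice in each of 4 genotypes. These were double-deficient (Cre+Apcfl/flp53-/-), Apc-deficient (Cre+Apcfl/flp53+/+), p53-deficient (Cre+Apc+/+p53-/-) and control (Cre+Apc+/+p53+/+) mice. All of them carried the AhCre transgene, an inducible Cre driven by a Cyp1a promoter, and all received β-naphthoflavone at 80 mg/kg, given as 3 injections within a day in the labels and as daily injections in the methods. Apc is deleted only where the Cre acts, whereas p53 is absent from the whole animal. The mice were adult, and the sources used here give neither a more exact age nor a strain.

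Transcripts of p53, read on the first of its probe sets, were undetected in all double-deficient and p53-deficient intestines (scaled signals between 3.53 and 15.1), against 273 to 393 in Apc-deficient and 190 to 274 in control intestines. Another probe set was detected on 3 double-deficient (169 to 241) and 2 p53-deficient arrays, below Apc-deficient (435 to 691) and control arrays (313 to 428). The remaining probe set was detected on 2 double-deficient arrays and 1 p53-deficient array. It was higher in double-deficient than in control intestines (58.3 to 84.2 against 18.3 to 28.3, adjusted p = 0.0245, limma), with 17.1 to 49.7 in p53-deficient intestines. Which part of the gene each probe set reads was not analysed here. Between 40.8% and 43.1% of probe sets were detected per control array, below every other array. The shares were 45.5% to 46.9% in p53-deficient, 47.9% to 48.5% in Apc-deficient and 47.9% to 51.5% in double-deficient intestines. Mean log2 signals before scaling were 7.06 to 7.34 on control and 6.40 to 6.69 on Apc-deficient arrays. They were 6.69 to 7.34 on double-deficient and 6.50 to 6.81 on p53-deficient arrays. The median scaled log2 signal of exocrine pancreas transcripts was 11.16 in double-deficient gap429 and 12.70 in control d5wt_474u, against 5.34 to 6.19 on the other 10 arrays, and that of smooth muscle transcripts was 7.50 in control d5wt_110u, against 8.45 to 10.46 elsewhere. Header codes of the deposited table differ between the genotypes. If they mark runs, run and genotype cannot be told apart. The study asked how loss of p53 alters the response of the intestine to loss of Apc, and the comparisons below follow that design.

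The proteasome degrades proteins marked with ubiquitin. Its 20S core is built of 2 kinds of ring, in which alpha subunits (Psma) gate the entry and beta subunits (Psmb) hold the proteolytic sites. A 19S cap recognises ubiquitin, removes it and threads the substrate in, with ATPases (Psmc) that unfold and non-ATPase subunits (Psmd) that bind, deubiquitinate and scaffold. Other caps (Psme) open the core without ATP, and chaperones (Psmg, with Psmd5, Psmd9 and Psmd10) assemble it. In cells exposed to interferon, and in lymphoid cells, Psmb8, Psmb9 and Psmb10 replace the catalytic subunits Psmb5, Psmb6 and Psmb7, which favours peptides for MHC class I. The transcription factor NRF1 (Nfe2l1) raises proteasome genes together when degradation falls short.

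All values below are scaled signals, that is probe set signals scaled so that every array has the same geometric mean, unless stated as log2. A gene was called where the limma test over all 36336 probe sets gave a Benjamini-Hochberg adjusted p under 0.05. All 48 genes passed the detection screen, and 41 of the 42 list genes were detected on all 12 arrays. Since this is whole tissue, fewer cells of a type and less RNA per cell cannot be told apart. Nothing states that the 3 mice of a genotype were handled separately, and p-values measure the spread between these arrays.

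Loss of Apc was accompanied by few calls among the proteasome genes. In Apc-deficient against control intestines 3 of the 42 were called higher (7.14%) and 0 lower, at a background of 26.4% of all probe sets called, 15.7% higher and 10.7% lower. The 3 were Psme4, Psmd14 and Psmc1. Over all probe sets 5720 were higher and 3874 lower, a split that became 3464 and 6696 with centring on probe sets detected on all arrays and 1219 and 11124 without scaling. In the same comparison all 42 had a positive log2 change, with a median of 0.45 against 0.002 over all probe sets. In double-deficient against control intestines 0 of the 42 were called at a background of 14.9%, with 8.9% of all probe sets higher and 6.04% lower. The median change there was 0.32 against −0.004 over all probe sets. In p53-deficient against control intestines 0 were called at a background of 0.344%, and the median change was 0.18 against 0.053 over all probe sets.

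The list as a whole lay above the control level in Apc-deficient and double-deficient intestines by an amount that depended on the scaling, with overlapping arrays. The median log2 signal of the 42 genes was 10.53, 10.89 and 10.63 in double-deficient, 10.40, 11.19 and 10.83 in Apc-deficient, 10.84, 10.27 and 10.46 in p53-deficient and 10.08, 10.61 and 10.47 in control intestines. The pooled SD of this median within a genotype was 0.30. Control d5wt_110u was the lowest of the 12 and Apc-deficient D5fl_444t the highest. Set against the median change over all probe sets, the list stood 0.45 higher in Apc-deficient against control intestines, also without scaling, but 0.10 with quantile normalisation and 0.04 in the deposited normalised table. It stood 0.32 higher in double-deficient against control intestines, and 0.20 and 0.15 in the same alternatives. In p53-deficient against control intestines it stood 0.13 higher, and turned to −0.11 and −0.10. Without control d5wt_110u these became 0.14 with combined loss, 0.25 with loss of Apc and −0.05 with loss of p53. No test was made of the list as a whole.

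**Figure D1:**
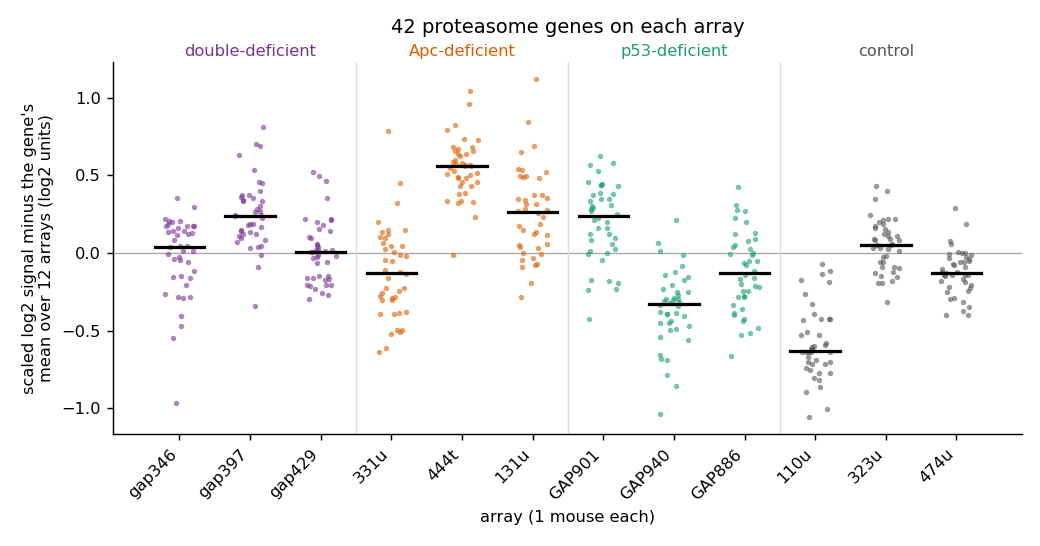
Each point is 1 of 42 proteasome genes on 1 array, as its scaled log2 signal minus its own mean over the 12 arrays (vertical axis, log2 units), and black bars are medians over the genes. Control d5wt_110u lies low and Apc-deficient D5fl_444t high across nearly the whole list, and the arrays of the 4 genotypes overlap.

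The genes varied together from mouse to mouse. They were also bright. By mean log2 signal the lowest of the 42 stood at percentile 68.9 of the probe sets tested, and the median gene at 94.9. Pearson's r of each gene with the median of the other 41 over the 12 arrays lay between 0.45 and 0.97, with a median of 0.82, against a median of 0.02 over all probe sets tested. With the genotype means removed it lay between 0.43 and 0.98, with a median of 0.855. These are descriptions over 12 arrays that share their scaling, and no comparison with probe sets of like brightness was made. The highest were Psmd4 (0.97), a ubiquitin receptor of the cap, Psmc5 (0.96) and Psmc3 (0.94), both ATPases. The lowest were Psme1 (0.45), an interferon-inducible activator, Psmc4 (0.54), an ATPase, and Psme4 (0.54). With genotype means removed Psme1 had 0.85, whereas Psme4 had 0.43, the lowest of the 42.

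Since these genes varied together, their promoters were read for sequences known to bind regulators of proteasome and growth genes. RefSeq windows of 300 bases (250 before the start of the gene and 50 after it, GRCm38.p6) were found for 35 of the 42 genes, 37 windows in all, and for Psmb8, Psmb9 and Psmb10. Motifs were searched on both strands. The core of the antioxidant response element that NRF1 and NRF2 bind, TGACNNNGC, was in 16.2% of the 37 windows and in 12.4% of all 32851 promoter windows. Its variant TGAGNNNGC was in 35.1% and in 17.6%. The E-box CACGTG was in 8.1% and in 7.2%, and CCAAT, the box that NF-Y binds, in 32.4% and in 37.4%. Of the 3 genes called higher with Apc loss, Psme4 held the first and Psmd14 and Psmc1 held CCAAT, and among the immunoproteasome genes the promoter of Psmb10 held the E-box. A match of letters is a description and not a binding site.

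The windows of these 4 genes, which carry the calls described below, are given on the strand of the gene, 5′ to 3′, with matches in capitals. Psme4 lies at chr11:30771525-30771824 (+ strand), Psmd14 at chr2:61711444-61711743 (+ strand), Psmc1 at chr12:100109952-100110251 (+ strand) and Psmb10 at chr8:105938343-105938642 (− strand). In Psmd14 a forward and a reverse CCAAT match share bases.
Psme4: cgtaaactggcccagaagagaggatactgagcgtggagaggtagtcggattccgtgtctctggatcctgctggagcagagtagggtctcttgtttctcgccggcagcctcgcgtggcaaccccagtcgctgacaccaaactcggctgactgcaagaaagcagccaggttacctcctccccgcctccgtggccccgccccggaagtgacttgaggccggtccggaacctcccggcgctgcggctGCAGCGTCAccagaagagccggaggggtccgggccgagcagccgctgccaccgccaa
Psmd14: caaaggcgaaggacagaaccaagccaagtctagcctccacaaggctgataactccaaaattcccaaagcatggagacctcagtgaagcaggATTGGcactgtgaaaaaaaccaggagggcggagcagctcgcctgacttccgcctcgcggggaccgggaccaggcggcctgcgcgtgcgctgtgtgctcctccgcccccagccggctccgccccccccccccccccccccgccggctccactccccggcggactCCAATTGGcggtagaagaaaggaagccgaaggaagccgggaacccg
Psmc1: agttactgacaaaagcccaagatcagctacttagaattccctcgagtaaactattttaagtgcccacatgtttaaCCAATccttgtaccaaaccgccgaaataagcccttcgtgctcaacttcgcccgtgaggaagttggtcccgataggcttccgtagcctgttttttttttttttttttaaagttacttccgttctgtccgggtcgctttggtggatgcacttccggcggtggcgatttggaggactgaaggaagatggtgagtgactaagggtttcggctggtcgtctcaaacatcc
Psmb10: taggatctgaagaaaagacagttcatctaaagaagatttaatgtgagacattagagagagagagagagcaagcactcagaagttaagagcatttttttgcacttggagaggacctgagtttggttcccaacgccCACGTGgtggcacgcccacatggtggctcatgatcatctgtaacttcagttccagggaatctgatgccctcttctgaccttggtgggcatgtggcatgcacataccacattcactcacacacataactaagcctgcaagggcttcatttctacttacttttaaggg
The capitals in Psme4 are a reverse match that begins 7 bases before the start of the gene, and the E-box of Psmb10 begins 116 bases before it.

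Among the activators and the inhibitor, Psme4 had the largest change of the 42 genes in Apc-deficient against control intestines. It encodes PA200, a nuclear activator that caps the core without ubiquitin or ATP and is known from testis and from chromatin. Its scaled signals were 1351, 1149 and 1103 in double-deficient, 2113, 1651 and 2662 in Apc-deficient, 1233, 930 and 970 in p53-deficient and 610, 1122 and 928 in control intestines. All 3 Apc-deficient intestines lay above all other 9. The log2 change was 1.29 (SE 0.27, adjusted p = 0.00738, limma), a fold of 2.45, in Apc-deficient against control intestines. In double-deficient against control intestines it was 0.48 (adjusted p = 0.24), and between double- and Apc-deficient intestines −0.81 (adjusted p = 0.177). The interaction, which tests the difference between both effects of Apc loss, was −1.08 (SE 0.38) with an unadjusted limma p of 0.0161 and an adjusted p of 0.248. The call against control was kept in 22 of 23 alternatives, and lost without scaling (log2 change 0.62, adjusted p = 0.0993).

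Other probe sets of Psme4 were read because the chosen one matches several transcripts. Of the 5 others, 2 were detected on all 12 arrays. These gave log2 changes of 1.27 (adjusted p = 0.011) and 1.03 (adjusted p = 0.0159) in Apc-deficient against control intestines. In double-deficient against control intestines they gave 0.73 (adjusted p = 0.112) and 0.88 (adjusted p = 0.0446, limma). With combined loss Psme4 was thus called on 1 of the 3 probe sets detected throughout, and with loss of Apc alone on all 3. Of the 3 others, each detected on 6 arrays or fewer, 1 was called with combined loss (1.37, adjusted p = 0.0485) and 0 with loss of Apc alone.

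The other members of this group did not pass the test. Psme3, which encodes the nuclear activator PA28γ, had signals of 930, 1070 and 946 in double-deficient, against 698, 478 and 642 in p53-deficient intestines, which did not overlap (log2 change 0.71, adjusted p = 0.123). Psme1, a subunit of the interferon-inducible activator PA28, had 3122, 2997 and 3146 in double-deficient, against 4935, 3776 and 4372 in p53-deficient intestines. Its log2 change of −0.49 had an adjusted p of 0.194, the lowest change of the 42 in this comparison, in which 30 were positive. Against control it was −0.32 in double-deficient intestines. Psmf1, which encodes the inhibitor PI31, had a log2 change of 0.41 in Apc-deficient against control intestines (adjusted p = 0.127).

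**Figure D2:**
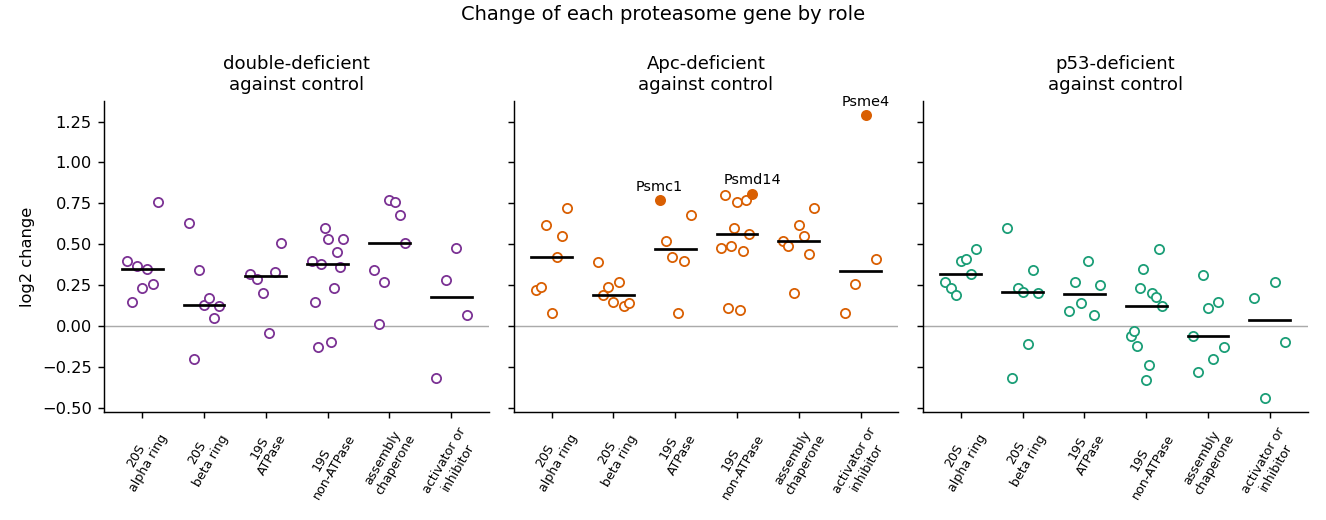
Log2 change (vertical axis) of each of the 42 genes by role, in double-deficient, Apc-deficient and p53-deficient intestines against control. Filled points were called (limma, adjusted p under 0.05) and black bars are medians by role. Only Psmc1, Psmd14 and Psme4 are filled, all in Apc-deficient intestines, where all 42 points lie above 0.

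In the 19S cap, 1 of 11 non-ATPase subunits and 1 of 6 ATPases were called higher in Apc-deficient against control intestines, where 15.7% of all probe sets were. In the other 5 comparisons 0 were called. The medians by role were 0.56 and 0.47 in Apc-deficient against control intestines. Psmd14, the deubiquitinase that strips ubiquitin from substrates as they enter, had signals of 3062, 3344 and 2545 in double-deficient, 2909, 3873 and 4164 in Apc-deficient, 2968, 1878 and 2029 in p53-deficient and 1616, 2430 and 2226 in control intestines. Double-deficient and Apc-deficient intestines both lay above all control intestines, and 1 of the 3 p53-deficient intestines (GAP901) reached their range. The log2 change in Apc-deficient against control intestines was 0.81 (SE 0.26, adjusted p = 0.0394). In double-deficient against control intestines it was 0.53 (adjusted p = 0.177).

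Psmc1, an ATPase of the cap, had signals of 711, 887 and 821 in double-deficient, 907, 1272 and 1148 in Apc-deficient, 839, 596 and 651 in p53-deficient and 515, 842 and 621 in control intestines. All Apc-deficient intestines lay above all other arrays. The log2 change against control was 0.77 (SE 0.24, adjusted p = 0.0393). Both calls stood close to the threshold. They were lost with quantile normalisation, in the deposited table and without scaling, and also without control d5wt_110u (adjusted p = 0.139 for Psmd14 and 0.138 for Psmc1), control d5wt_474u (0.0719 and 0.0989), Apc-deficient D5fl_444t (0.086 and 0.0979) or Apc-deficient D5fl_131u (0.107 and 0.0888). The call of either was further lost without double-deficient gap397 or p53-deficient GAP886, that of Psmd14 without double-deficient gap346 and that of Psmc1 without double-deficient gap429, with adjusted p between 0.0504 and 0.0541.

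Several further cap subunits had changes of like size in Apc-deficient against control intestines and were not called. Psmd2, a scaffold that binds ubiquitin-like domains and Usp14, had signals of 3162, 3421 and 3733 in Apc-deficient, against 1486, 2539 and 2042 in control intestines, which did not overlap (log2 change 0.80, adjusted p = 0.0554). In double-deficient intestines it had 1586, 2817 and 2342, and the difference between double- and Apc-deficient intestines was −0.65 (adjusted p = 0.273). Psmc6, an ATPase, had a log2 change of 0.68 (adjusted p = 0.085) and Psmd12, a lid subunit, of 0.77 (adjusted p = 0.0733). Psmd7, the partner of Psmd14, had 561, 938 and 927 in double-deficient, against 646, 315 and 408 in p53-deficient intestines, which overlapped (log2 change 0.85, adjusted p = 0.166). At the other end, the ATPase Psmc4 had a change of 0.08 (SE 0.46) in Apc-deficient against control intestines. Psmd8 and Psmd3, both of the lid, had 0.10 and 0.11.

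In the 20S core 0 of 14 constitutive subunits were called in any of the 6 comparisons. The 7 alpha subunits had log2 changes between 0.08 and 0.72 in Apc-deficient against control intestines (median 0.42) and between 0.15 and 0.76 in double-deficient against control intestines (median 0.35). The highest of both was Psma7, with signals of 1522, 2636 and 2178 in double-deficient, 1548, 2375 and 2167 in Apc-deficient, 1974, 1298 and 1848 in p53-deficient and 916, 1486 and 1311 in control intestines. Every double-deficient and every Apc-deficient intestine lay above the control intestines, and p53-deficient intestines overlapped with all. Its changes against control were 0.76 (adjusted p = 0.099) in double-deficient and 0.72 (adjusted p = 0.0927) in Apc-deficient intestines. Psma3 had 0.62 in Apc-deficient against control intestines (adjusted p = 0.0984).

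The 7 beta subunits had the lowest median of the 6 roles in Apc-deficient against control intestines, at 0.19 (0.12 to 0.39). The catalytic subunits are among them. Psmb7 had signals of 4627, 4476 and 3782 in double-deficient, 2962, 6567 and 4157 in Apc-deficient, 6309, 3445 and 4251 in p53-deficient and 2953, 4959 and 4147 in control intestines, with all 4 genotypes overlapping. Psmb6 had 1390, 1531 and 1164 in double-deficient, 1014, 2114 and 1343 in Apc-deficient, 2136, 1199 and 1769 in p53-deficient and 1087, 1588 and 1296 in control intestines, again overlapping. Psmb1, a subunit without a catalytic site of its own, had the smallest p of the role in double-deficient against control intestines, with 2954, 2853 and 2322 in double-deficient, 3136, 2120 and 2801 in p53-deficient and 1323, 2170 and 1859 in control intestines. Its log2 changes were 0.63 in double-deficient (adjusted p = 0.159) and 0.60 in p53-deficient intestines (adjusted p = 0.349).

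The chaperones that assemble the particle were the role with the highest median change in double-deficient against control intestines, at 0.51. None of the 7 was called there, and 1 was called higher in double-deficient against p53-deficient intestines, the comparison that asks what Apc loss does without p53. This was 1 of the 42 genes (2.38%) at a background of 9.07% of all probe sets called and 4.62% called higher. Psmg2, which pairs with Psmg1 to build the alpha ring, had signals of 522, 839 and 673 in double-deficient, 471, 705 and 580 in Apc-deficient, 406, 297 and 334 in p53-deficient and 330.6, 430.1 and 430.5 in control intestines. All intestines without Apc lay above all with it. The log2 change was 0.96 (SE 0.25, adjusted p = 0.0368) in double-deficient against p53-deficient, 0.76 (adjusted p = 0.0621) in double-deficient against control and 0.55 (adjusted p = 0.122) in Apc-deficient against control intestines. A further probe set of the gene, detected on all arrays, gave 1.22 (adjusted p = 0.0328), 0.82 (adjusted p = 0.0906) and 0.96 (adjusted p = 0.0405) in these comparisons. The remaining one, detected on 9 arrays and on 0 p53-deficient arrays, gave −0.05 (adjusted p = 0.928), −0.35 (adjusted p = 0.37) and 0.12 (adjusted p = 0.749, limma).

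Of 23 alternatives, 10 lost the call of Psmg2 in this comparison, SAM and a fit of only these genotypes included. It was also lost without double-deficient gap397 (adjusted p = 0.141) or gap429 (0.0982), p53-deficient GAP940 (0.131) or GAP886 (0.0955), or control d5wt_323u (0.0523) or d5wt_474u (0.0542). Psmg1 had 838, 1350 and 1143 in double-deficient, 742, 1227 and 1054 in Apc-deficient, 863, 527 and 723 in p53-deficient and 470, 799 and 700 in control intestines. Its changes were 0.77 (adjusted p = 0.107) in double-deficient and 0.62 (adjusted p = 0.152) in Apc-deficient intestines against control. Psmd5, Psmd9 and Psmd10, which assemble the base of the cap, were not called in any comparison.

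**Figure D3:**
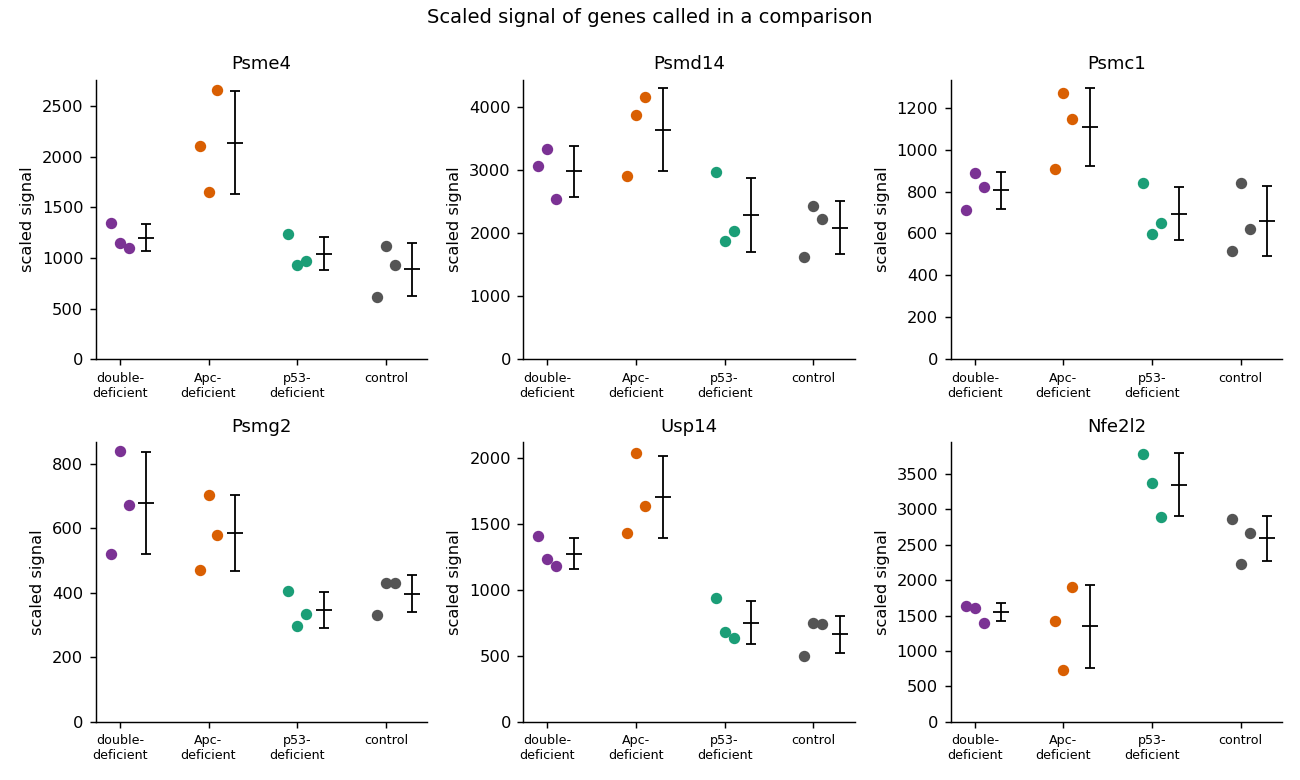
Scaled signal (vertical axis, from 0) of 4 proteasome genes, the deubiquitinase Usp14 and the factor Nfe2l2 on each array. Points are mice, and the bar beside them gives mean and SD of 3 mice. Psmg2 and Usp14 lie higher, and Nfe2l2 lower, in every double-deficient and Apc-deficient intestine than in every p53-deficient and control intestine, whereas Psme4, on the probe set plotted, lies above all other arrays in the 3 Apc-deficient intestines.

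Apc loss was also compared over both p53 states at once, a contrast of the same fit that was added after the single comparisons had been seen. Here 7 of the 42 genes (16.7%) were called higher and 0 lower, at a background of 31.6%, with 17.7% of all probe sets higher and 13.9% lower. They were Psme4 (0.75, adjusted p = 0.013), Psmg2 (0.75, adjusted p = 0.00849), Psmd7 (0.81, adjusted p = 0.0327), Psmg4 (0.68, adjusted p = 0.0362), Psmg1 (0.64, adjusted p = 0.0421), Psmd14 (0.60, adjusted p = 0.0265) and Psmc1 (0.49, adjusted p = 0.0478). The share called higher was thus close to that over all probe sets, and the roles were not compared. The other probe sets of Psmd7 and Psmg4 went the opposite way. That of Psmd7, detected on 8 arrays, was called lower in this contrast (−0.53, adjusted p = 0.0161) and in Apc-deficient against control intestines (−0.65, adjusted p = 0.0354), and that of Psmg4, detected on 7 arrays, had −0.53 (adjusted p = 0.083). The direction of Psmd7 and Psmg4 therefore rests on the brightest probe set. Of the other probe sets of Psmg2, that detected on all arrays gave 1.09 (adjusted p = 0.00396, limma). The one detected on 9 arrays gave 0.04 (adjusted p = 0.896). The call of Psme4 was kept in all 21 alternatives of this contrast and that of Psmg2 in 20, with the exception of no scaling (adjusted p = 0.0552). For Psmc1 15 of 21 alternatives lost it.

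Loss of p53 was accompanied by no call in the list. In double-deficient against Apc-deficient intestines 0 of 42 were called at a background of 0.294% (median change −0.14 against −0.044 over all probe sets). The median turned to 0.11 with quantile normalisation and to 0.07 without Apc-deficient D5fl_444t. In the interaction 0 were called at a background of 0.011%, with a median of −0.29, against −0.064 over all probe sets, and turned to 0.17 against 0.013 with quantile normalisation. Without scaling the list stood 0.22 below the median over all probe sets. Averaged over Apc status, loss of p53 gave 0 calls at a background of 1.27%.

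Factors that work with the proteasome but carry other names were listed apart. Of 12 measured, 8 were called higher and 0 lower in Apc-deficient against control intestines, where 15.7% of all probe sets were higher. With combined loss 3 were called higher against control, where 8.9% of all probe sets were, and 0 were called in the other 4 comparisons. The difference from the 42 genes was not tested. Usp14, a deubiquitinase that sits on the cap, had signals of 1408, 1231 and 1184 in double-deficient, 1429, 2040 and 1633 in Apc-deficient, 938, 681 and 637 in p53-deficient and 502, 745 and 737 in control intestines. The intestines without Apc all lay above those with it. Its log2 change against control was 0.97 (adjusted p = 0.026) in double-deficient and 1.37 (SE 0.24, adjusted p = 0.00366) in Apc-deficient intestines. The second was kept in 22 of 23 alternatives, the exception being no scaling (0.70, adjusted p = 0.0633). The first was lost in 6, including those without control d5wt_110u (adjusted p = 0.0899), double-deficient gap346 (0.0675), gap397 (0.0757) or gap429 (0.0542).

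Uchl5, the other deubiquitinase of the cap, had 1591, 1281 and 966 in double-deficient, 1350, 1828 and 1703 in Apc-deficient, 1081, 711 and 730 in p53-deficient and 592, 820 and 794 in control intestines. It was called in Apc-deficient (1.15, adjusted p = 0.0108) and not in double-deficient intestines against control (0.78, adjusted p = 0.0661). The shuttle factors Ubqln1, Ubqln2 and Rad23b, which carry ubiquitinated proteins to the cap, had 0.80, 1.10 and 0.80 in Apc-deficient against control intestines, all called. So did Zfand5, which stimulates degradation, at 1.05, the ubiquitin ligase Ube3c, which works on the proteasome, at 0.93, and the scaffold Ecpas at 0.64. Ubqln1 (0.74, adjusted p = 0.0302) and Zfand5 (0.76, adjusted p = 0.0423) were called in double-deficient against control intestines too. Without control d5wt_110u these became adjusted p = 0.0997 and 0.118, and Ubqln1 in Apc-deficient against control intestines 0.0537. Pomp and Sem1, which are needed for maturation of the core and as a lid subunit, had −0.09 and 0.30 and were not called.

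With quantile normalisation 3 of these and other related genes were called higher and 2 lower in Apc-deficient against control intestines, in place of 9 and 2. Proliferation markers moved with this group. Their summed scaled signal over 13 genes was 22101 to 28457 in double-deficient, 27792 to 33669 in Apc-deficient, 11165 to 18516 in p53-deficient and 10964 to 15520 in control intestines. Of the 13, 12 were called higher in Apc-deficient against control intestines, where 15.7% of all probe sets were. The part of proliferation in these results was not tested.

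**Figure D4:**
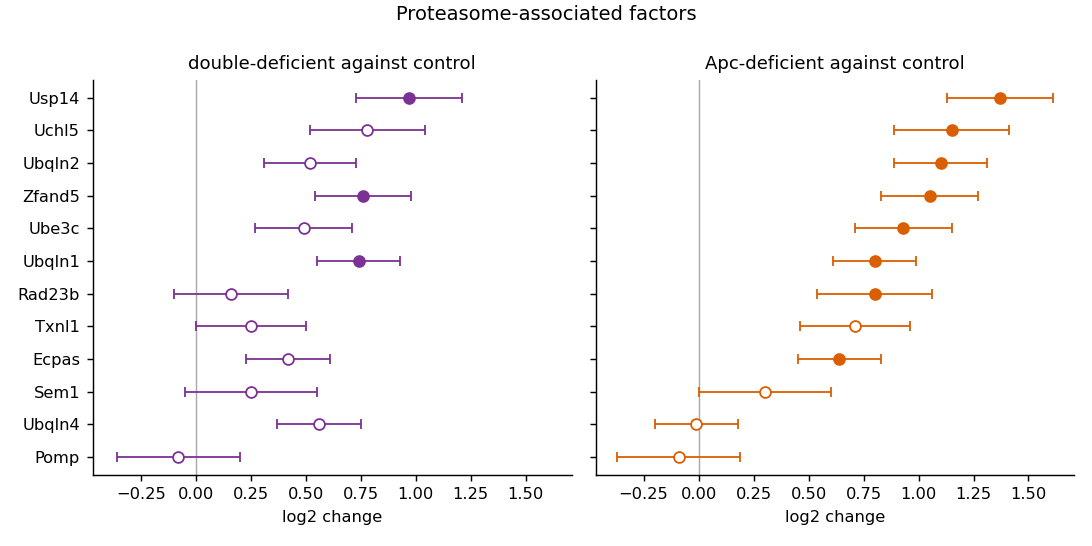
Log2 change with its standard error (horizontal axis) of 12 proteasome-associated factors in double-deficient and in Apc-deficient intestines against control, with filled points called. Of the 12, 3 are filled in double-deficient and 8 in Apc-deficient intestines, and Usp14 is the highest in both.

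Of the genes for the regulator NRF1 and the machinery that releases it (7 measured), 1 was called lower in Apc-deficient against control intestines. The share over all probe sets called lower there was 10.7%. The gene called was Nfe2l2, which encodes NRF2, the related regulator of the oxidative stress response. It had signals of 1629, 1614 and 1398 in double-deficient, 1418, 735 and 1903 in Apc-deficient, 3782, 3370 and 2890 in p53-deficient and 2869, 2236 and 2668 in control intestines, and intestines without Apc did not overlap with those with it. The log2 change was −1.04 (SE 0.31, adjusted p = 0.0317) in Apc-deficient and −0.74 (adjusted p = 0.123) in double-deficient against control intestines, and −1.11 (adjusted p = 0.0488) in double- against p53-deficient intestines. The first was lost without control d5wt_110u (adjusted p = 0.0971), control d5wt_474u (0.0798) or Apc-deficient D5fl_444t (0.0626). The last was lost in 14 of 23 alternatives, including those without any 1 double-deficient, p53-deficient or control array or of Apc-deficient D5fl_331u (adjusted p between 0.0601 and 0.136). Averaged over p53 status the change was −1.07 (adjusted p = 0.00451) and was called in all 21 alternatives.

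Nfe2l1 itself, which encodes NRF1, had 557, 656 and 629 in double-deficient, 851, 834 and 557 in Apc-deficient, 796, 653 and 654 in p53-deficient and 527, 635 and 599 in control intestines. The genotypes overlapped and it was not called in any comparison. Nfe2l3, a further member of the family, was undetected on all double-deficient, p53-deficient and control arrays, so no fold is given, although its signals of 35.3 to 40.1 in double-deficient intestines differed from 4.1 to 6.5 in control intestines (adjusted p = 0.0203). For Apc loss averaged over p53 status it was also called higher (adjusted p = 0.0297, limma). The paper lists this probe set, by SAM, among the changes it found against control only in double-deficient intestines.

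Of the immunoproteasome genes, Psmb10 and Psmb9 had lower signals where Apc was lost, whereas Psmb8 had a log2 change of 0.08 in Apc-deficient against control intestines (adjusted p = 0.881). None of the 3 was called there or in double-deficient against control intestines (limma), although Psmb10 had an unadjusted p under 0.05 in both. In double-deficient against p53-deficient intestines 1 of the 3 was called lower, at a background of 4.45% of all probe sets lower. Psmb10, which replaces Psmb7, had signals of 1655, 1956 and 1767 in double-deficient, 1405, 2634 and 2287 in Apc-deficient, 4642, 3929 and 4369 in p53-deficient and 2715, 3594 and 2959 in control intestines. Every intestine without Apc lay below every intestine with it. The log2 change was −1.27 (SE 0.25, adjusted p = 0.0123), a fold of 0.416, in double-deficient against p53-deficient intestines. Against control it was −0.78 (adjusted p = 0.0559) in double-deficient, −0.59 (adjusted p = 0.0994) in Apc-deficient and 0.49 (adjusted p = 0.367) in p53-deficient intestines. The call was lost without scaling and without both arrays high in pancreas transcripts (adjusted p = 0.0706).

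Psmb9, which replaces Psmb6, had signals of 2277, 1066 and 2202 in double-deficient, 1142, 2358 and 2250 in Apc-deficient, 5233, 2703 and 4886 in p53-deficient and 3157, 4357 and 2450 in control intestines. Again no intestine without Apc reached the lowest with it. The change in double-deficient against p53-deficient intestines was −1.23 (SE 0.41, adjusted p = 0.0888). Psmb8, which replaces Psmb5, had 3501, 1648 and 2713 in double-deficient, 2140, 4013 and 3373 in Apc-deficient, 5701, 3275 and 4579 in p53-deficient and 2682, 3586 and 2533 in control intestines, which overlapped (−0.82, adjusted p = 0.166). In the contrast of Apc loss over both p53 states Psmb10 (−0.93, SE 0.17, adjusted p = 0.00299) and Psmb9 (−1.03, SE 0.29, adjusted p = 0.021) were called lower, and both calls were kept in all 21 alternatives, while Psmb8 was not called (−0.37, adjusted p = 0.271).

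The ratio of an immunoproteasome gene to its constitutive counterpart on the same array does not depend on a scaling that shifts a whole array, although quantile normalisation can alter it. Only its difference between genotypes is read, since the level of 1 probe set cannot be set against that of another. The log2 signal of Psmb10 minus that of Psmb7 was −1.48, −1.19 and −1.10 in double-deficient, −1.08, −1.32 and −0.86 in Apc-deficient, −0.44, 0.19 and 0.04 in p53-deficient and −0.12, −0.46 and −0.49 in control intestines. Intestines without Apc again lay below all those with it. Psmb9 minus Psmb6 was 0.71, −0.52 and 0.92 in double-deficient, 0.17, 0.16 and 0.74 in Apc-deficient, 1.29, 1.17 and 1.47 in p53-deficient and 1.54, 1.46 and 0.92 in control intestines, so that double-deficient gap429 and control d5wt_474u, the arrays high in pancreas transcripts, met at 0.92. Psmb8 minus Psmb5 averaged 0.14 ± 0.83 in double-deficient, 0.33 ± 0.17 in Apc-deficient, 1.23 ± 0.16 in p53-deficient and 0.52 ± 0.24 in control intestines (SD, n = 3 each). It lay highest in p53-deficient intestines, with no overlap with the other genotypes.

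**Figure D5:**
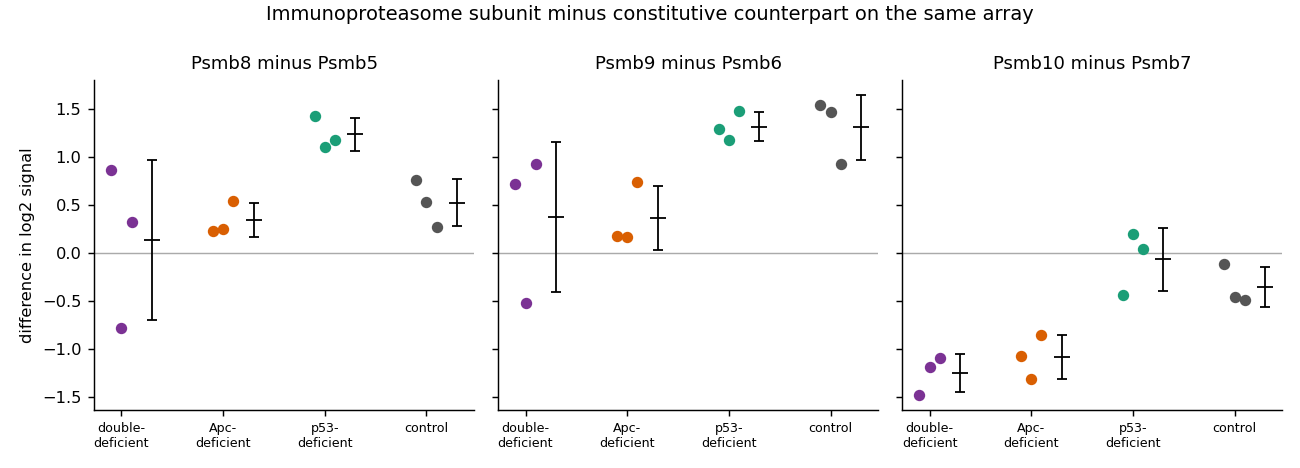
Difference in log2 signal (vertical axis) between each immunoproteasome subunit and its constitutive counterpart on the same array, by genotype. Points are mice, and the bar beside them gives mean and SD of 3 mice. For Psmb10 minus Psmb7 all double-deficient and Apc-deficient intestines lie between −1.48 and −0.86, below all p53-deficient and control intestines.

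Markers of several cell types were read beside these genes, among them those of T cells, which carry much immunoproteasome. The summed scaled signal of 8 T cell markers was 935 to 2134 in double-deficient, 1488 to 3969 in Apc-deficient, 4773 to 9487 in p53-deficient and 5640 to 7201 in control intestines. Of the 8, 3 were undetected on all double-deficient arrays, 3 on all Apc-deficient, 1 on all p53-deficient and 1 on all control arrays. That of 6 B and plasma cell markers was 7283 to 9410 in double-deficient, 3410 to 7270 in Apc-deficient, 11884 to 13984 in p53-deficient and 8356 to 9441 in control intestines, so that double-deficient and control intestines overlapped. Myeloid cell markers (7 genes) summed to 5640 to 8578 in double-deficient, 5260 to 7301 in Apc-deficient, 9161 to 9839 in p53-deficient and 6572 to 7625 in control intestines. Only p53-deficient intestines did not overlap with the others. Enterocyte markers (12 genes) summed to 27654 to 43660 in double-deficient, 23281 to 59478 in Apc-deficient, 92147 to 97683 in p53-deficient and 57557 to 68870 in control intestines. Paneth cell markers (6 genes) summed to 29494 to 39732 in double-deficient, 30489 to 40468 in Apc-deficient, 21054 to 38119 in p53-deficient and 8696 to 13581 in control intestines. Double-deficient intestines lay below all control intestines in enterocyte markers and above them in Paneth cell markers. Interferon response markers (12 genes) summed to 4047 to 14947 in double-deficient, 16209 to 20894 in Apc-deficient, 6927 to 15841 in p53-deficient and 8092 to 16623 in control intestines, with Apc-deficient intestines above all double-deficient and p53-deficient ones. Their median log2 signal was lowest in double-deficient gap397, at 7.88 against 8.52 to 10.53 on the other arrays, and this array also had the lowest Psmb8 and Psmb9. The part of these cells and of interferon in the result was not tested.

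Genes of MHC class I presentation, for which the immunoproteasome makes peptides, were called in both directions. Of 9 measured, 1 was called higher and 1 lower in Apc-deficient against control intestines, where 15.7% of all probe sets were higher and 10.7% lower. With combined loss 0 were higher and 2 lower against control (background 8.9% and 6.04%), and in double-deficient against p53-deficient intestines likewise 0 and 2 (background 4.62% and 4.45%). Irf1, the interferon-responsive factor that drives the immunoproteasome genes, had signals of 1311, 1013 and 1018 in double-deficient, 1048, 1553 and 1620 in Apc-deficient, 4075, 3113 and 4266 in p53-deficient and 1998, 2993 and 2434 in control intestines. Intestines without Apc all lay below those with it. Its log2 change was −1.77 (adjusted p = 0.00367) in double-deficient against p53-deficient intestines, called in all 23 alternatives. It was −1.14 (adjusted p = 0.0165) in double-deficient and −0.82 (adjusted p = 0.0338) in Apc-deficient against control intestines. The call in double-deficient intestines was lost without control d5wt_323u (adjusted p = 0.0534) or double-deficient gap397 (0.0642). That in Apc-deficient intestines was lost without control d5wt_323u (adjusted p = 0.107), control d5wt_474u (0.0789) or Apc-deficient D5fl_331u (0.103).

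Tap1, a chain of the peptide transporter, had 667, 287 and 778 in double-deficient, 2031, 1984 and 1613 in Apc-deficient, 2374, 911 and 1343 in p53-deficient and 1212, 2208 and 1476 in control intestines. Double-deficient intestines lay below all others. The change was −1.58 (SE 0.43, adjusted p = 0.035) against control and −1.82 (adjusted p = 0.0951) against Apc-deficient intestines. The call was lost without any control array (adjusted p between 0.0617 and 0.101) and without double-deficient gap346 (0.0514) or gap397 (0.119, log2 change −1.13). Tapbp, which loads peptides, was called lower in double-deficient against p53-deficient intestines (−0.94, adjusted p = 0.0287), a call lost without any double-deficient array (adjusted p between 0.05 and 0.11) or without p53-deficient GAP901 or GAP940 (0.0766 and 0.0667). Erap1, which trims peptides, was the gene called higher (0.89, adjusted p = 0.00784, Apc-deficient against control). The class I heavy chains H2-K1 and H2-D1 and the light chain B2m were not called in any comparison.

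Of the remaining 3 genes of the rule, Psma8 was undetected on 11 of the 12 arrays, and no fold is given. The brightest probe set of Psmc3ip, a recombination factor, was undetected on all p53-deficient and control arrays, with signals of 143 to 169 in double-deficient, 195 to 253 in Apc-deficient, 62.6 to 98.1 in p53-deficient and 96.0 to 110 in control intestines. On this probe set it was at least 2.17-fold higher in Apc-deficient than in control intestines (adjusted p = 0.00493, limma). Between double-deficient and p53-deficient intestines the fold was 1.94 (adjusted p = 0.0203, limma). This is not a lower bound, since the probe set was detected on only 2 double-deficient arrays. These folds are ratios of geometric means, with signals under the lowest detected on an array raised to it. The other probe set of Psmc3ip, detected on all double-deficient and Apc-deficient arrays and 1 p53-deficient array, gave log2 changes of 0.99 (adjusted p = 0.1) and 1.68 (adjusted p = 0.0311) in these comparisons. Psme3ip1, which binds Psme3, was not called (0.57 in Apc-deficient against control, adjusted p = 0.0611).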

How the data were processed

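The authors deposited a table of 45101 probe sets on the MOE430_2 array for 12 mice, which gives each a signal (linear intensity, before normalisation) and a p-value of detection. No source used here names the software that made them. Detection columns of double-deficient arrays name the group without the mouse, so detection (p under 0.05) was read as a number of arrays in a group. A second deposited table, with 34271 probe sets, holds a score, for which log signals were centred on the array's mean and expressed in its standard deviations, and served as an alternative. For this its scores were turned into log2 units by the mean SD of the arrays' log2 signals.

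A probe set was kept if 1 or more arrays had a detection p under 0.2, which left 36336 after removal of 64 AFFX controls. A floor of 1 was set under the signals, and each array's log2 values were centred on their mean. limma 3.58.1 (R 4.3.3) fitted a mean per genotype with 8 residual degrees of freedom. Benjamini-Hochberg adjustment covered every probe set kept, with calls under 0.05. The study used SAM, kept as an alternative. The depth of an array has no count, and 3 mice per genotype limit the precision. The fit was tested on simulated data.

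Symbols came from the platform annotation. Named were, per role, the 2 members with the smallest p and that with the largest p in double-deficient against control intestines, the 2 smallest p in each other comparison, Psmb8, Psmb9 and Psmb10, and up to 3 related genes per role. Other genes were named after their values were seen. Members, lists and motifs were chosen with earlier results of these data known. Alternatives were other scalings, screens, floors, variance models, fits of the compared genotypes, other choices of probe set, and leaving out each array, or both high in pancreas transcripts.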

Additional observations from a re-analysis of the deposited data

How the results depend on the processing

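No paired analysis was possible because the labels give no replicate numbers that groups share. Among the alternatives to the scaling, screen, fit and arrays, no called change turned into a called change the other way, whereas a second probe set of Psmd7 was called lower (−0.53) for Apc loss averaged over p53 status, in place of 0.81. Calls among the 42 proteasome genes changed as follows. In Apc-deficient against control intestines, 3 calls became 1 (Psme4) with quantile normalisation, the deposited table, centring on probe sets detected on all arrays, a fit of these genotypes alone, SAM, or without both arrays high in pancreas transcripts, 0 without scaling, 6 with a trend in the variance, and 1 to 4 when 1 array was left out. In double-deficient against control intestines, 0 calls became 1 with the deposited table (Psme1, lower), with signals under 20 set to 20 or with the trend (Psmg2, higher both times), and stayed 0 when 1 array was left out. In double-deficient against p53-deficient intestines, 1 call became 2 without scaling and 0 without the detection screen, in a fit of these genotypes alone, with SAM or without both pancreas arrays, and 0 to 1 when 1 array was left out. In the interaction 0 became 2 without scaling. For Apc loss averaged over p53 status, 7 calls became 3 with quantile normalisation or centring on detected probe sets, 4 with the deposited table, 1 without scaling, 13 with the trend, 2 without both pancreas arrays and 2 to 10 when 1 array was left out.

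Among the related genes, 11 calls in Apc-deficient against control intestines became 5 with quantile normalisation or without scaling, 7 in a fit of these genotypes alone or without both pancreas arrays, 3 with SAM, and 6 to 11 when 1 array was left out. In double-deficient against control intestines, 6 became 0 without both pancreas arrays and 0 to 9 when 1 array was left out. In double-deficient against p53-deficient intestines, 3 became 6 without scaling or with signals under 20 set to 20, 5 with detection on at least 3 arrays or the trend, 1 without the screen or both pancreas arrays, and 1 to 3 when 1 array was left out. Single calls, 1 in place of 0, appeared in p53-deficient against control intestines and the interaction without scaling, in double-deficient against Apc-deficient intestines with the trend, and in p53 loss averaged over Apc status with signals under 20 set to 20 or when 1 array was left out. For Apc loss averaged over p53 status 13 became 7 without scaling and 9 to 13 when 1 array was left out. The causes were not tested.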
